A study of Homo sapiens with 4 samples.

Results

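The nuclear genes for the subunits of the oxidative phosphorylation complexes were examined in RNA-seq of WT cells and ZCCHC4 KO1 cells. The genes were chosen by their RefSeq symbols: those of the NDUFA, NDUFB, NDUFC, NDUFS and NDUFV series (complex I), the SDH genes (complex II), the UQCR genes and CYC1 (complex III), CYCS (cytochrome c), the COX5 to COX8 series (complex IV) and the ATP5 genes (complex V, the ATP synthase). Of 276 RefSeq genes with such a symbol, 87 are protein-coding, and 85 of these had an entry among the 16658 genes of the expression table. COX6A2 and COX7B2 had none. Complex I was represented by 37 genes, complex II by 4, complex III by 10, cytochrome c by 1, complex IV by 13 and complex V by 20.

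Complexes I to IV pass electrons from NADH and succinate to oxygen, and complexes I, III and IV move protons out of the mitochondrial matrix as they do so. The ATP synthase lets the protons back through a rotating ring and uses the rotation, carried by a central stalk into a catalytic head held still by a peripheral stalk, to make ATP. Nearly all subunits of these complexes are encoded in the nucleus and imported, and the mitochondrial genome encodes a small number of core subunits, which are not among the genes described here.

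Both groups carry the label HepG2, a cell line from a human liver tumor, and neither was treated. WT cells are wild type for ZCCHC4, which encodes an RNA-binding protein, and ZCCHC4 KO1 cells are 1 clone in which that gene was knocked out. Each group has 2 libraries of total RNA from cells grown in DMEM with fetal bovine serum to the same confluence. No source names separate cultures, so a p-value measures only the spread between these libraries, which may be technical. With a single clone, the knockout and other properties of the clone cannot be told apart.

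Values are FPKM, fragments counted relative to the length of the transcript and the size of the library, so that levels of different genes may be compared per length. ZCCHC4 itself was at 7.22 and 5.44 FPKM in WT against 1.08 and 2.29 in ZCCHC4 KO1, lower in each knockout library (log2 fold change -1.48, SE 0.287, limma adjusted p = 0.0448). Without ZCCHC4 KO1 replicate 1, this adjusted p was 0.0514, and over all alternatives it ran from 7.91e-31 to 0.115. The label HepG2 was not matched by hepatocyte markers. Of 12 such markers, 6 were listed and 0 reached an FPKM of 1 in any library, with AFP at 0 and 0.05 in WT and at 0 in either knockout library. Of 9 markers of other cell types, KRT7 was at 2025.95 to 3077.59 FPKM. All 4 fibroblast markers had negative log2 fold changes, and COL1A1 (7.28 and 7.19 against 2.59 and 2.28) and COL3A1 (15.44 and 14.76 against 5.54 and 6.75) fell, with adjusted p = 0.0235 and 0.0263 from limma. EPCAM, KRT19, PTPRC and PECAM1 were below 0.2 throughout. The part of any change in cell makeup in the values that follow was not tested, and in bulk RNA fewer cells of a type and less RNA per cell cannot be told apart.

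The subunit genes were abundant and differed little between the groups. Of the 85 genes, 80 were at 1 FPKM or more in 2 or more libraries and were tested among 10726 genes. Their median level in WT was 126 FPKM, against 11.14 for all genes tested, and 48 of the 80 were at 100 FPKM or more. The order was led by ATP5F1B, the catalytic beta subunit of the ATP synthase, at 809.3 ± 69.7 FPKM in WT (SD, n = 2), followed by COX7C (599.5 ± 25.8), ATP5MC2 (544.3 ± 25.7) and COX6A1 (515.4 ± 63.3). The ranges of COX7C and ATP5MC2 in the 2 WT libraries did not overlap, whereas those of ATP5MC2 and COX6A1 did. NDUFA5, an accessory subunit of complex I, was the lowest at 4.23 and 2.51 FPKM in WT against 2.91 and 4.95 in ZCCHC4 KO1, and it was the single tested member below 10.

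Summed over all 85 genes, the 5 untested ones included, the FPKM came to 13168.9 and 14371.2 in WT against 15516.9 and 13162.7 in ZCCHC4 KO1. The ZCCHC4 KO1 libraries were thus the highest and the lowest of the 4, and the subunit genes held 2.57% and 2.67% of all FPKM in WT against 2.75% and 2.52% in ZCCHC4 KO1. The median log2 fold change of the 80 genes (ZCCHC4 KO1 minus WT, on the scale of log2(FPKM + 1)) was -0.02, against -0.03 for all genes tested. With the FPKM rescaled by median ratios, both medians changed sign, to 0.05 and 0.03. Of the 80, 38 had a positive and 42 a negative value, from -0.79 to 0.62. None reached a log2 fold change of 1 in either direction, as 528 of all 10726 genes did. Within 0.5 of 0 were 72 of the 80, and 8413 of all 10726 genes. These counts are not matched for level, and most of all genes tested were at lower levels than the subunit genes.

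At the thresholds stated for the study (a 2-fold change or more, with an FDR below 0.001), limma called 0 of the 80 genes higher and 0 lower. The background at these thresholds was 0.0186% of all tested genes higher and 0.0559% lower, or 2 and 6 of 10726 genes. The paper reports far more genes at these thresholds and names no test for them. The counts of 0 here thus do not show that its own list holds no subunit gene. At an FDR below 0.05 with no minimum fold change, 0 of the 80 were called higher, where 1.5% of all genes were, and 2 were called lower, or 2.5%, where 4.48% of all genes were. At an unadjusted p under 0.05 from the same fit, 5 of the 80 were higher (6.25%, against 8.96% of all genes) and 6 lower (7.5%, against 13.9%). The counts at an FDR below 0.05 depended on single libraries: 0 higher and 0 lower when WT replicate 1 or WT replicate 2 was left out, 0 and 2 without ZCCHC4 KO1 replicate 1 and 7 and 4 without ZCCHC4 KO1 replicate 2. The share of all tested genes called rose as well in that last fit, from 5.98% to 14.9%, beside 13.8% of the subunit genes. In 16 of the 80 each ZCCHC4 KO1 library was above each WT library (20%, against 23.1% of all tested genes), and in 26 each was below (32.5%, against 28.5%). These shares were near the background of all genes.

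**Figure D1:**
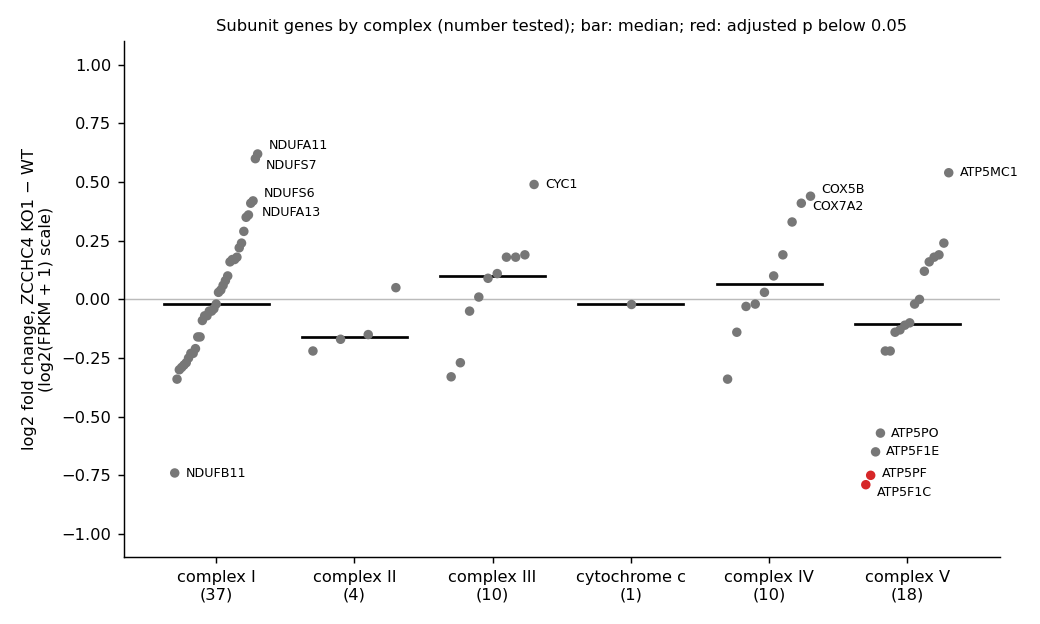
Log2 fold change (ZCCHC4 KO1 minus WT, on the log2(FPKM + 1) scale) of each of the 80 tested subunit genes, by complex, with the number tested under each name and a bar at the median; genes over 0.4 in size are named. The points of most complexes lie around 0, and the 2 red points (adjusted p below 0.05 from limma) are ATP5F1C at -0.79 and ATP5PF at -0.75, both of complex V.

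Both genes called at an FDR below 0.05 encode stalk subunits of the ATP synthase, and both were lower in ZCCHC4 KO1 cells. ATP5F1C encodes the gamma subunit, the shaft of the central stalk, and lies between 7788177 and 7807801 on chromosome 10 (GRCh38). It was at 185.23 and 189.37 FPKM in WT against 99.79 and 116.22 in ZCCHC4 KO1. The ZCCHC4 KO1 mean was 57.7% of the WT mean, 108 ± 11.6 against 187.3 ± 2.93 FPKM (SD, n = 2 each), with no overlap of the groups. The log2 fold change was -0.79 (SE 0.136), with a 95% interval from -1.13 to -0.46 (adjusted p = 0.0319 from limma). Without WT replicate 1 the adjusted p was 0.152 and without WT replicate 2 it was 0.166, at log2 fold changes of -0.81 and -0.78. With the replicate number as a block it was 0.0731, and with the numbers crossed, a pairing that no label gives, it was 2.23e-15. Over 13 alternatives it ran from 2.23e-15 to 0.166 and was below 0.05 in 7.

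ATP5PF, on chromosome 21 from 25724500 to 25735653, encodes coupling factor 6, a subunit of the peripheral stalk. It was at 129.38 and 123.58 FPKM in WT against 67.45 and 83.26 in ZCCHC4 KO1. The groups again did not overlap, and the ZCCHC4 KO1 mean was 59.6% of that of WT. The log2 fold change of ATP5PF was -0.75 (SE 0.150), with a 95% interval from -1.12 to -0.38 (adjusted p = 0.0481 from limma). The adjusted p was 0.255 and 0.159 when WT replicate 1 or 2 was left out, 0.0679 without ZCCHC4 KO1 replicate 1, and 0.1 with the replicate number as a block. Over 13 alternatives it ran from 1.09e-13 to 0.255 and was below 0.05 in 6. ATP5PF overlaps GABPA, which was at 2.06 to 4.3 FPKM, and the strand setting of the quantification is not given in the sources used here.

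Another pair of stalk genes had similar values but did not pass the test. ATP5F1E, the epsilon subunit of the central stalk, was at 377.76 and 364.51 FPKM in WT against 221.95 and 252.89 in ZCCHC4 KO1, a log2 fold change of -0.65 (95% interval -0.98 to -0.31, adjusted p = 0.0561 from limma). ATP5PO, the oligomycin sensitivity-conferring protein that joins the peripheral stalk to the head, was at 222.04 and 239.16 in WT against 144.72 and 166.32 in ZCCHC4 KO1, or -0.57 (95% interval -0.91 to -0.23, adjusted p = 0.0769). For each of them the groups did not overlap. Without ZCCHC4 KO1 replicate 2 their adjusted p was 0.0186 and 0.0248, and over all alternatives it ran from 3.91e-10 to 0.469 and from 2.73e-08 to 0.526. The remaining stalk genes were nearer to 0. ATP5F1D, the delta subunit of the central stalk, was at 152.65 and 174.53 in WT against 211.72 and 158.10 in ZCCHC4 KO1, ATP5PB had a log2 fold change of -0.02 and ATP5PD one of -0.22.

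No gene of the head or the ring had a value as low as that of ATP5PO. ATP5F1B was at 760.07 and 858.58 FPKM in WT against 952.70 and 810.87 in ZCCHC4 KO1, so that the groups overlapped (log2 fold change 0.12, 95% interval -0.29 to 0.53). ATP5F1A, the alpha subunit of the head, was at 272.46 and 282.95 in WT against 255.04 and 264.07 in ZCCHC4 KO1, below WT in both (-0.10, 95% interval -0.41 to 0.21). Over its 18 tested genes, complex V had 6 positive and 12 negative log2 fold changes, with a median of -0.10. At an unadjusted p under 0.05 from limma, 1 was higher and 4 lower, where 8.96% and 13.9% of all tested genes were. In 8 of the 18 both ZCCHC4 KO1 libraries were below WT, ATP5F1A, ATP5PD and ATP5IF1 among them, and in 2 both were above. The shares over all tested genes were 28.5% and 23.1%. The log2 ratio of the FPKM summed over all 20 genes was -0.02. By role, the median was 0.01 for the 2 head genes and -0.65 for the 3 of the central stalk, the value of ATP5F1E. It was -0.39 for the 4 of the peripheral stalk, 0.18 for the 3 of the c-ring and -0.11 for the 5 other membrane genes, against -0.03 for all genes tested. Within each library, ATP5F1C stood at 24.4% and 22.1% of ATP5F1B in WT against 10.5% and 14.3% in ZCCHC4 KO1. The same ratio was 17% and 14.4% against 7.08% and 10.3% for ATP5PF, 49.7% and 42.5% against 23.3% and 31.2% for ATP5F1E, and 29.2% and 27.9% against 15.2% and 20.5% for ATP5PO. For ATP5F1D it was 20.1% and 20.3% against 22.2% and 19.5%, and for ATP5PB 10.6% and 8.75% against 7.13% and 10.6%, with overlapping groups in both. For ATP5PD it was lower in both ZCCHC4 KO1 libraries (32.6% and 30.7% against 22.5% and 27.6%). So it was outside the stalks, for ATP5F1A (35.8% and 33% against 26.8% and 32.6%) and ATP5IF1 (36.3% and 33.9% against 28% and 30.5%). A ratio within a library shows an unequal difference of the pair of genes, not which of them differed.

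The c subunit of the ring is made from 3 genes that encode the same mature protein, ATP5MC1, ATP5MC2 and ATP5MC3. ATP5MC1 was at 283.77 and 301.02 FPKM in WT against 507.29 and 354.47 in ZCCHC4 KO1, above WT in both (log2 fold change 0.54, 95% interval 0.04 to 1.03, adjusted p = 0.188 from limma). Its share of the FPKM of the 3 genes was 32.9% and 32.7% in WT against 40.1% and 37.2% in ZCCHC4 KO1, that of ATP5MC2 61% and 61.1% against 54.9% and 57.8%, and that of ATP5MC3 6.11% and 6.21% against 4.95% and 5.03%. These shares were not tested. Without ZCCHC4 KO1 replicate 2 the log2 fold change of ATP5MC1 was 0.79 and the adjusted p 0.0148, and without ZCCHC4 KO1 replicate 1 they were 0.28 and 0.429. Over all alternatives its adjusted p ran from 3.5e-07 to 0.705. RefSeq lists 8 pseudogenes by the symbol of ATP5MC1, so reads could be divided differently among near-identical copies. The same holds for the lower genes ATP5PF (4 pseudogenes), ATP5F1E (2), ATP5F1C (1) and ATP5PO (1). Of the pseudogenes that match the chosen symbols, 0 had an entry among the expressed genes listed, and this division was not tested. ATP5IF1, the inhibitor of the enzyme, was at 275.80 and 291.28 in WT against 266.56 and 247.55 in ZCCHC4 KO1, a log2 fold change of -0.14 (95% interval -0.46 to 0.18).

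**Figure D2:**
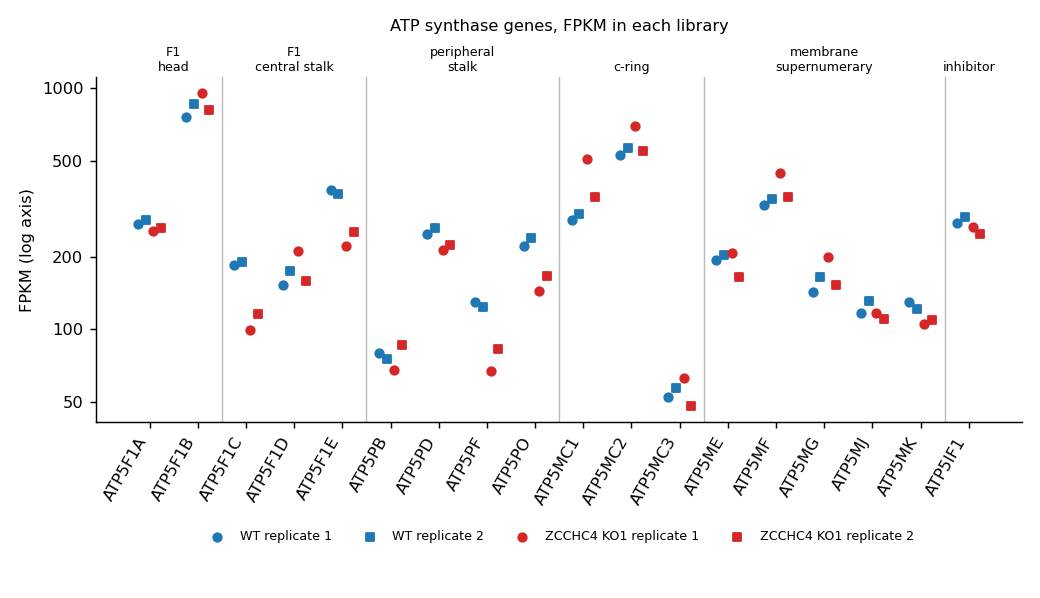
FPKM (log axis) of the 18 tested ATP synthase genes in each of the 4 libraries, grouped by their place in the enzyme; blue points are WT, red points ZCCHC4 KO1, circles replicate 1 and squares replicate 2. In ATP5F1C, ATP5F1E, ATP5PF and ATP5PO both red points lie well below both blue points, whereas those of ATP5F1B overlap the blue ones.

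Promoter sequences from RefSeq (GRCh38.p14, 250 bases before to 50 bases after a transcription start listed there) were matched for 66 of the 80 genes and searched on both strands for the letters GCGCANGCG of NRF1 (nuclear respiratory factor 1), CCGGAAG of the ETS family, to which GABPA belongs, and AAGATGGCG of YY1, regulators known for acting on respiratory chain genes. The first entry was taken for the 9 genes with several, and in 62 of the 66 the start used was the outer bound of the gene. The NRF1 letters were in 31.8% of the 66 promoters, against 16.2% of the 8827 promoters of tested genes and 8.05% of all 27305 promoters. The ETS letters were in 28.8%, 21% and 10.7%, and the YY1 letters in 12.1%, 4.5% and 1.85%. Any of them was present in 57.6% of the members' promoters, against 36.2% and 18.3%. The NRF1 letters stood in the promoters of genes at both ends of the range of fold changes, in 5 of 13 promoters of genes with both ZCCHC4 KO1 libraries above WT (38.5%) and in 8 of 22 of genes with both below (36.4%). For the ETS letters these were 4 of 13 (30.8%) and 3 of 22 (13.6%), and for the YY1 letters 1 of 13 (7.69%) and 3 of 22 (13.6%). These differences were not tested. Windows of 30 bases around a match are shown for 3 genes that were lower and 3 that were higher in both ZCCHC4 KO1 libraries, in the direction of the gene's strand and with the matched letters in capitals.
ATP5F1C (chr10:7788145-7788174, + strand): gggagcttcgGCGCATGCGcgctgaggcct
ATP5PF (chr21:25735155-25735184, - strand): cactcaaagaGCGCATGCGtacagagcaag
ATP5PO (chr21:33915808-33915837, - strand): cgccaacgcgCGCGTGCGCccttgcgcgtt
NDUFA11 (chr19:5903868-5903897, - strand): cggtccccggCGCGTGCGCgcgatccatgt
NDUFS7 (chr19:1383823-1383852, + strand): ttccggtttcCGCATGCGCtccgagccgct
NDUFS6 (chr5:1801351-1801380, + strand): cagaagccgtGCGCATGCGttagcgctaag
In ATP5PO, NDUFA11 and NDUFS7 the match is on the strand opposite to the gene, and in ATP5F1C the letters match on both strands, 1 base apart. The promoter of ATP5PF held all 3 motifs. The start used for it lies 599 bases inside the bounds of the gene given above. Its ETS and YY1 matches begin 30 and 57 bases before that start, and its NRF1 match 120 bases before it.
ATP5PF, ETS (chr21:25735066-25735095, - strand): tgccaggggacCCGGAAGcacttaccctcc
ATP5PF, YY1 (chr21:25735092-25735121, - strand): aggcgaagaaAAGATGGCGgaggctgtgcc
A match describes letters only and is not evidence of binding. The factors themselves were tested with the other regulators of mitochondrial biogenesis. NRF1 was at 7.58 and 8.76 FPKM in WT against 8.9 and 9.26 in ZCCHC4 KO1, GABPA at 4.3 and 2.06 against 2.15 and 3.88, and YY1 at 42.28 and 35.22 against 30.65 and 44.21. None of the 3 passed the test.

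Complex I, the entry point for electrons from NADH, showed values on either side of 0. Of its 37 genes, 18 had a positive and 19 a negative log2 fold change, with a median of -0.02. Limma called 0 at an FDR below 0.05 (3 higher and 1 lower at an unadjusted p under 0.05). For this complex and those below, the background at that unadjusted p was 8.96% of all tested genes higher and 13.9% lower. The sum of their FPKM was 4201.3 and 4698.7 in WT against 5133.2 and 4243.4 in ZCCHC4 KO1. NDUFB11, an accessory subunit of the membrane arm encoded on the short arm of chromosome X, had the lowest value. It was at 290.84 and 343.67 FPKM in WT against 223.82 and 159.28 in ZCCHC4 KO1, below WT in both (log2 fold change -0.74, 95% interval -1.24 to -0.24, adjusted p = 0.0974 from limma). Without ZCCHC4 KO1 replicate 1 the log2 fold change of NDUFB11 was -0.98 and the adjusted p 0.0137, without ZCCHC4 KO1 replicate 2 they were -0.50 and 0.091, and over all alternatives the adjusted p ran from 2.97e-13 to 0.386. NDUFB11 overlaps RBM10, which was at 34.34 to 43.78 FPKM.

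The highest values of complex I were those of NDUFA11 and NDUFS7, both encoded on chromosome 19. NDUFA11, an accessory subunit of the membrane arm, was at 170.95 and 205.67 FPKM in WT against 340.72 and 243.16 in ZCCHC4 KO1, a log2 fold change of 0.62 (95% interval 0.11 to 1.12, adjusted p = 0.148 from limma). NDUFS7, a core subunit that carries an iron-sulfur cluster next to the site of ubiquinone, was at 51.10 and 62.71 in WT against 101.97 and 72.63 in ZCCHC4 KO1, or 0.60 (95% interval 0.09 to 1.1, adjusted p = 0.159). NDUFS6, a zinc-binding accessory subunit, was at 329.24 and 366.45 against 517.08 and 416.93, or 0.42 (95% interval 0.01 to 0.82, adjusted p = 0.208). In all 3 both ZCCHC4 KO1 libraries were above WT, with ZCCHC4 KO1 replicate 1 the highest of the 4. Without ZCCHC4 KO1 replicate 2 the adjusted p was 0.0116 for NDUFA11 and 0.0121 for NDUFS7. Leaving out ZCCHC4 KO1 replicate 1 instead gave 0.309 and 0.343, at log2 fold changes of 0.37 and 0.35. Over the alternatives the adjusted p of the 3 genes ran from 1.78e-09 to 0.681, from 7.12e-09 to 0.686 and from 0.000108 to 0.902.

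The 7 nuclear core subunits, which hold the flavin and the iron-sulfur clusters, had a median log2 fold change of 0.06, and limma called 0 of them. NDUFV1, the subunit that binds NADH, was at 72.61 and 84.48 FPKM in WT against 92.73 and 72.39 in ZCCHC4 KO1. NDUFS1 was at 25.18 and 24.57 against 21.10 and 27.13. In both genes the groups overlapped, as they did in NDUFS3 (log2 fold change 0.18) and NDUFS8 (0.16). NDUFV2 was below WT in both ZCCHC4 KO1 libraries (109.62 and 123.64 against 89.18 and 99.71, log2 fold change -0.30, 95% interval -0.64 to 0.04). The 30 accessory genes had a median of -0.04, with 14 positive and 16 negative values. NDUFB9, on chromosome 8, was at 228.30 and 261.41 against 322.36 and 275.76. NDUFC2 (97.51 and 100 against 78.52 and 84.39) and its readthrough gene NDUFC2-KCTD14 (56.44 and 59.73 against 54.49 and 57.30) share exons, and the division of reads between them is uncertain.

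Complex II, which takes electrons from succinate and also serves the tricarboxylic acid cycle, had a median of -0.16, and limma called 0 of its 4 genes (0 at an unadjusted p under 0.05). SDHA, the flavoprotein, was at 151.13 and 161.71 FPKM in WT against 148.52 and 130.07 in ZCCHC4 KO1, and SDHB, the iron-sulfur subunit, at 125.54 and 136.92 against 134.74 and 137.56. The membrane anchors were SDHC at 53.08 and 54.78 against 50.54 and 46.50 and SDHD at 53.57 and 44.45 against 34.19 and 50.84. The groups overlapped in SDHB and SDHD, and in SDHA and SDHC both ZCCHC4 KO1 libraries were below WT by a small margin. The 95% intervals of the log2 fold changes were -0.50 to 0.17 for SDHA, -0.26 to 0.36 for SDHB, -0.47 to 0.17 for SDHC and -0.77 to 0.32 for SDHD, so that a log2 fold change of 1 lay outside each of them.

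Complex III, which passes electrons from ubiquinol to cytochrome c, had 7 positive and 3 negative values among 10 genes, with a median of 0.10, and limma called none (1 higher at an unadjusted p under 0.05). That gene was CYC1, which encodes cytochrome c1. It was at 307.04 and 370.80 FPKM in WT against 544.07 and 412.01 in ZCCHC4 KO1, above WT in both (log2 fold change 0.49, 95% interval 0.01 to 0.96, adjusted p = 0.208 from limma, from 4.82e-06 to 0.895 over the alternatives 0.0375 without ZCCHC4 KO1 replicate 2 and 0.461 without ZCCHC4 KO1 replicate 1). UQCRFS1, the Rieske iron-sulfur protein, was at 119.18 and 124.78 in WT against 102.18 and 99.89 in ZCCHC4 KO1, or -0.27, and UQCR10 at 63.28 and 67.19 against 55.98 and 47.80, or -0.33. The groups did not overlap in either gene. UQCRC1 and UQCRC2, the core proteins, had log2 fold changes of 0.11 and 0.01, and UQCRB one of -0.05. UQCRH, the hinge protein gene, was at 344.47 and 359.56 against 432.73 and 373.45, above WT in both, or 0.19. Its copy UQCRHL was at 3.28% and 3.6% of UQCRH in WT against 3.18% and 3.23% in ZCCHC4 KO1, and reads of such near-identical copies may be divided differently. CYCS, the cytochrome c gene, was at 35.50 and 28.91 FPKM in WT against 28.08 and 35.65 in ZCCHC4 KO1, with overlapping groups and 45 pseudogenes by its symbol.

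In complex IV, which reduces oxygen, limma called 0 of 10 tested genes (0 higher and 1 lower at an unadjusted p under 0.05), and the median was 0.06. COX7B was at 391.39 and 407.97 FPKM in WT against 309.68 and 323.06 in ZCCHC4 KO1, below WT in both (log2 fold change -0.34, 95% interval -0.66 to -0.02, adjusted p = 0.201 from limma, from 0.00201 to 0.867 over the alternatives). COX5B, an accessory subunit on the matrix side, was at 197.12 and 224.88 in WT against 344.84 and 238.02 in ZCCHC4 KO1, or 0.44, and COX7A2 at 166.80 and 185.93 against 275.97 and 197.62, or 0.41. Both were above WT in both ZCCHC4 KO1 libraries, and in both ZCCHC4 KO1 replicate 1 was above replicate 2. Without ZCCHC4 KO1 replicate 2 their adjusted p was 0.0235 and 0.0303. With ZCCHC4 KO1 replicate 1 left out it was 0.634 and 0.647, at log2 fold changes of 0.18 and 0.17, and over all alternatives it ran from 2.31e-05 to 0.872 and from 0.000107 to 0.89. COX5B was at 106% and 107% of COX5A in WT against 187% and 136% in ZCCHC4 KO1. COX7C (581.25 and 617.67 against 619.33 and 555.45), COX8A, COX6B1, COX6C and COX7A2L, a factor of supercomplex assembly, had overlapping groups.

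Genes of this complex come in isoforms, and those listed above an FPKM of 1 were the forms found in most tissues. COX6A1 was at 470.61 and 560.19 in WT against 697.44 and 595.79 in ZCCHC4 KO1 (log2 fold change 0.33), while COX6A2, its form in heart and muscle, had no entry. COX7A1, the muscle partner of COX7A2, was at 0 in 3 libraries and at 0.07 in ZCCHC4 KO1 replicate 1, and COX8C, a testis form, at 0 in 3 libraries and at 0.10 in the same library. COX6B2, the testis form of COX6B1, was below 1 FPKM in all 4 libraries. Symbols keep some subunits out of the list above. NDUFA4, now assigned to complex IV and renamed, was at 73.87 and 83.8 FPKM in WT against 93.24 and 84.9 in ZCCHC4 KO1, COX4I1 at 388.37 and 400.93 against 491.53 and 384.09, and the complex I gene NDUFAB1 at 108.03 and 118.39 against 145.18 and 131.05. None of these 3 passed the test. NDUFA4L2, a paralog of NDUFA4 known to be induced by hypoxia, was at 5.51 and 4.88 in WT against 0.2 and 0.33 in ZCCHC4 KO1 and fell by 2.29 on the log2 scale (SE 0.185, limma adjusted p = 0.00551).

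**Figure D3:**
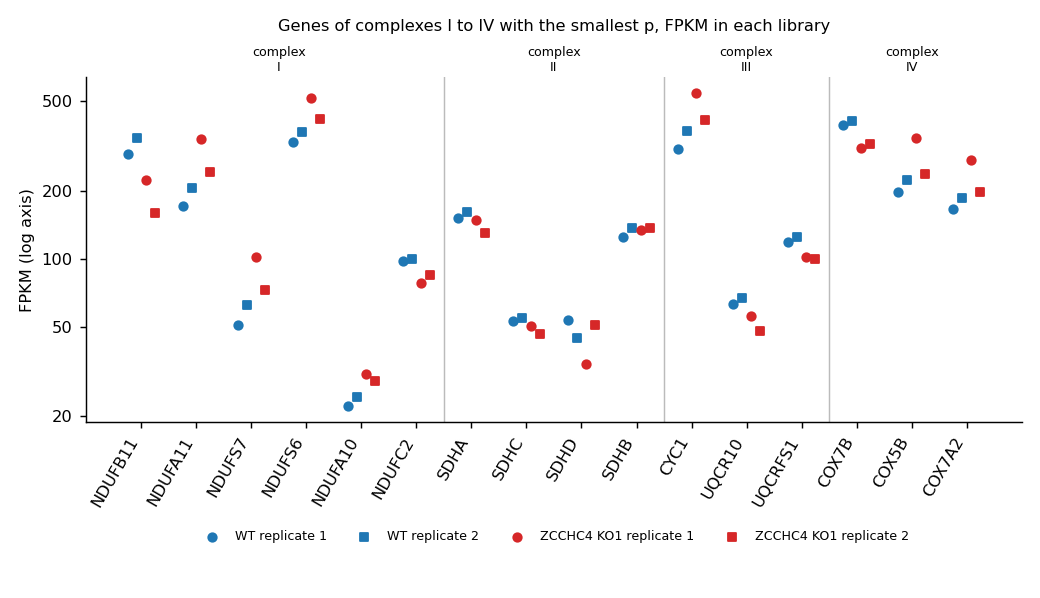
FPKM (log axis) in each library of the genes of complexes I to IV with the smallest p, 6 for complex I, all 4 for complex II and 3 each for complexes III and IV; blue points are WT, red points ZCCHC4 KO1, circles replicate 1 and squares replicate 2. In NDUFA11, NDUFS7, CYC1 and COX5B the red circle (ZCCHC4 KO1 replicate 1) lies highest and the red square lies between it and the blue points.

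The libraries of a group differed from each other along the GC content of the transcripts, and the subunit genes shared in this. Of the 80 genes, 66 were higher in replicate 2 than in replicate 1 of WT (median 0.11 on the log2 scale), and 58 were higher in replicate 1 than in replicate 2 of ZCCHC4 KO1 (median -0.18 for replicate 2 minus replicate 1). Across the 80 genes, GC content and the value of replicate 2 minus replicate 1 had a Spearman correlation of 0.5 in WT and of -0.611 in ZCCHC4 KO1, against 0.719 and -0.777 across 10632 genes. These correlations are across genes of the same libraries and describe them only. Among the 40 genes with a GC content of 35% to 47.2%, 11 had a positive and 29 a negative log2 fold change between the groups (median -0.08), and among the 40 from 47.2% to 69.5%, 27 had a positive and 13 a negative one (median 0.14). With the trend on GC content removed from each library, the counts were 18 and 22 (median -0.02) for the genes of lower GC content and 19 and 21 (median -0.01) for those of higher. NDUFA11, NDUFS7, CYC1, NDUFS6 and ATP5MC1 had a GC content of 62.7%, 64.9%, 61.5%, 58.4% and 55.1%, and ATP5F1C, ATP5F1E and ATP5PO one of 42.4%, 38.4% and 46.7%. ATP5PF and NDUFB11, which had negative values, were in the range of higher GC content, at 53.1% and 58.4%.

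With the GC trend removed, limma called 5 of the 80 genes higher and 5 lower at an FDR below 0.05, or 12.5% of the genes against 23.6% of all genes tested. The higher genes were ATP5MC1, CYC1, NDUFA11, NDUFS6 and NDUFS7, with log2 fold changes of 0.44, 0.33, 0.45, 0.29 and 0.41. The lower genes were ATP5F1C, ATP5F1E, ATP5PF, ATP5PO and NDUFB11, at -0.72, -0.63, -0.81, -0.52 and -0.87. For NDUFA11, NDUFS7, CYC1 and NDUFS6 the values were thus smaller than without this step, at 0.45 against 0.62, 0.41 against 0.60, 0.33 against 0.49 and 0.29 against 0.42. For ATP5PF and NDUFB11 they were larger in size, at -0.81 against -0.75 and -0.87 against -0.74. That the GC trend took part in these differences was not tested beyond its removal.

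**Figure D4:**
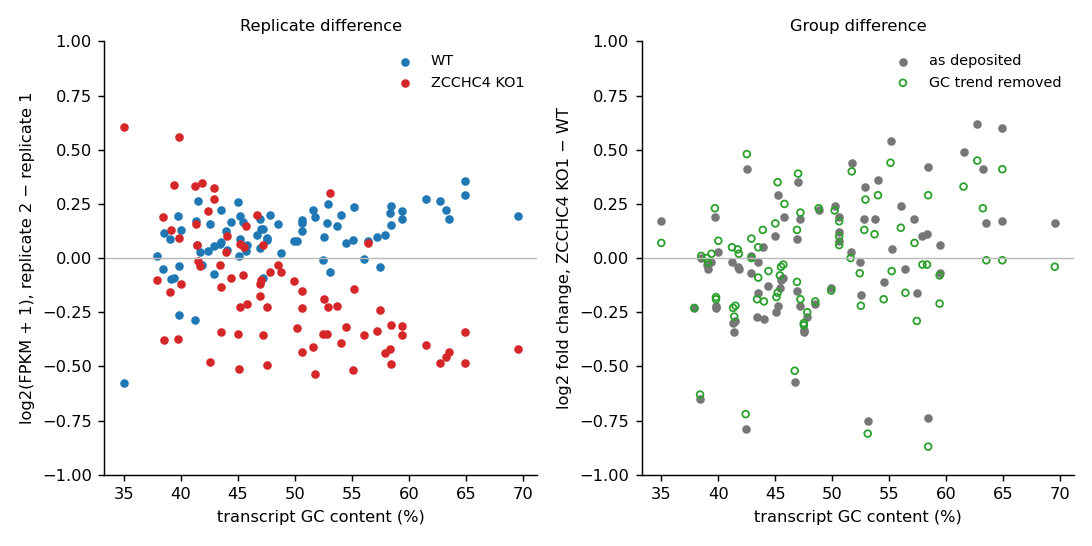
Transcript GC content (percent) of the 80 subunit genes against the log2 difference between replicates within each group (left; WT blue, ZCCHC4 KO1 red) and against the log2 fold change between groups (right; grey as deposited, green circles with the GC trend removed). The blue points tend upward with GC content and the red points downward (Spearman 0.5 and -0.611), and on the right the grey points above 0 are more frequent at high GC content.

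The subunit genes are scattered over the genome, and their values were set beside those of the genes around them. For each of the 80, the median log2 fold change was taken over the 20 nearest tested genes on its chromosome that are not subunit genes, 10 on each side where available. The GC trend was not removed from these values. Of all 10726 tested genes, 5708 had a negative log2 fold change. This neighbour median ran from -0.73 to 0.39, and across the 80 genes its Pearson correlation with the gene's own value was 0.587 and its Spearman correlation 0.392, a description across genes of the same 4 libraries. NDUFB11 had the lowest neighbour median, -0.73 beside its own -0.74, with 19 of its 20 neighbours lower in ZCCHC4 KO1. The chromosome 21 genes ATP5PO and ATP5PF had neighbour medians of -0.62 (19 of 20 lower) and -0.59 (16 of 20 lower), and ATP5F1E on chromosome 20 one of -0.38 (17 of 20 lower). NDUFV3, on chromosome 21 as well, had a neighbour median of -0.05 and was at 28.08 and 28.53 FPKM in WT against 33.80 and 32.29 in ZCCHC4 KO1. ATP5F1C, the gene with the lowest value of all, had a neighbour median of -0.24 (17 of 20 lower), less than its own -0.79.

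For other genes the values were mixed. ATP5F1A on chromosome 18 had a neighbour median of -0.33 with a value of -0.10 of its own, SDHD on chromosome 11 one of -0.30 beside -0.22, and ATP5F1D on chromosome 19 one of 0.39 beside 0.16. Toward higher values, NDUFS7, NDUFA13 and CYC1 had neighbour medians of 0.39, 0.30 and 0.29. NDUFA11, with the highest value of the 80 genes, had one of 0.25 (18 of 20 higher), and ATP5MC1 had one of -0.02 beside its own 0.54. Whether changes of whole regions took part in the values of single genes was not tested.

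**Figure D5:**
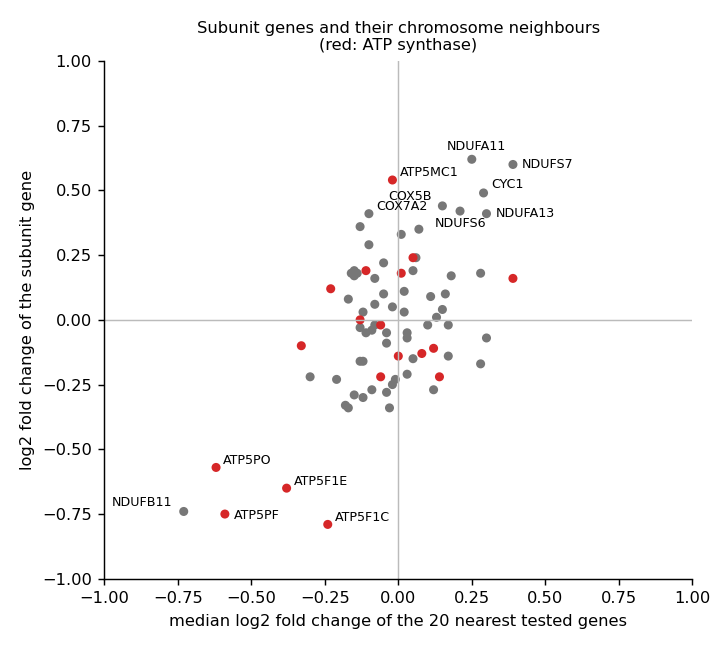
Log2 fold change of each of the 80 subunit genes against the median log2 fold change of its 20 nearest tested genes on the same chromosome; red points are ATP synthase genes, and genes over 0.4 in size are named. At the lower left, NDUFB11, ATP5PF, ATP5PO and ATP5F1E lie beside neighbours that were also lower, and ATP5F1C lies beyond its neighbour median of -0.24.

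Genes that build, supply or regulate the complexes were described from lists. Limma called 0 of the 18 tested assembly factors of complex I, 0 of 4 of complex II, 0 of 9 of complex III, 0 of 28 of complex IV and 0 of 6 of complex V at an FDR below 0.05. At an unadjusted p under 0.05 the numbers higher and lower were 2 and 1, 0 and 1, 2 and 0, 7 and 1, and 0 and 1, where 8.96% of all tested genes were higher and 13.9% lower. Of the complex IV factors, 18 had a positive and 10 a negative log2 fold change, with a median of 0.14. Those with the smallest p were TACO1, a translational activator of the mitochondrial COX1 message (50.88 and 59.22 FPKM in WT, 102.68 and 77.72 in ZCCHC4 KO1, adjusted p = 0.0875 from limma), and TMEM177 (14.27 and 15.75 against 24.16 and 22.24, adjusted p = 0.0884). Of the complex III factors, UQCC3 was at 20.48 and 23.97 against 45.94 and 32.91 and UQCC1 at 10.44 and 9.33 against 15.86 and 15.24. Among the ATP synthase factors, TMEM70, which takes part in building the c-ring, was at 23.61 and 21.98 in WT against 12.39 and 15.55 in ZCCHC4 KO1 (log2 fold change -0.68, adjusted p = 0.0876), and ATPAF2 at 15.44 and 19.49 against 24.05 and 22.58. For complex I, COA1 was at 88.69 and 96.03 against 140.64 and 123.64 and ECSIT at 31.96 and 35.04 against 55.9 and 42.12, and for complex II SDHAF3 was at 8.16 and 7.18 against 3.83 and 4.87. The groups overlapped in SDHAF1 (10.23 and 12.17 against 16.34 and 9.97). They did not in the other genes named, which were picked by the smallest p of each list. Over the whole lists they overlapped in 9 of 18, 3 of 4, 3 of 9, 10 of 28 and 2 of 6 factors of complexes I to V. Among all 10726 tested genes they overlapped in 5191.

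Of 14 enzymes of the tricarboxylic acid cycle, which feeds complexes I and II, 5 had positive and 9 negative values, with a median of -0.07. Limma called 0 of them higher and 1 lower at an FDR below 0.05, where 1.5% of all tested genes were higher and 4.48% lower. At an unadjusted p under 0.05, 2 were higher and 1 lower, where 8.96% and 13.9% of all tested genes were. IDH2, the NADP-dependent isocitrate dehydrogenase of mitochondria, fell from 19.35 and 22.18 FPKM in WT to 8.65 and 6.12 in ZCCHC4 KO1 (log2 fold change -1.39, SE 0.214, limma adjusted p = 0.0251). IDH3B, a subunit of the NAD-dependent enzyme, was at 65.43 and 76.43 against 110.83 and 91.17 and did not pass. Of 14 mitochondrial carriers and channels, 4 had positive and 10 negative values, with a median of -0.13. Against the same background, 1 was called higher and 1 lower at an FDR below 0.05, and 1 was higher and 2 lower at an unadjusted p under 0.05. VDAC3, a channel of the outer membrane, fell from 108.02 and 113.73 to 63.14 and 67.6 (-0.75, adjusted p = 0.0297), and MPC1, a subunit of the mitochondrial pyruvate carrier, rose from 6.79 and 6.89 to 13.02 and 16.46 (log2 fold change 1.0, adjusted p = 0.0445). VDAC3 lies on chromosome 8, and the genes around it were not described here. Values under the alternatives are not given here for IDH2, VDAC3 or MPC1. Of 13 genes of coenzyme Q synthesis, 5 were positive and 8 negative, and limma called none. At an unadjusted p under 0.05 there were 0, where 8.96% of all tested genes were higher and 13.9% lower. PDSS1 was at 13.32 and 12.89 against 6.38 and 10.51 and COQ4 at 31.38 and 39 against 27.24 and 29.2.

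Of 19 regulators of mitochondrial biogenesis, 18 were tested, with 12 positive and 6 negative values, a median of 0.17 and 0 called (4 higher at an unadjusted p under 0.05, where 8.96% of all tested genes were). TWNK, the mitochondrial DNA helicase, was at 15.81 and 16.14 FPKM in WT against 26.57 and 22.93 in ZCCHC4 KO1 (adjusted p = 0.0892 from limma), and GABPB2 at 2.25 and 1.96 against 3.69 and 4.59 (adjusted p = 0.102). PPARGC1A, a coactivator of respiratory genes, was not tested and stood at 1.37 and 0.65 in WT against 0.33 and 0.48 in ZCCHC4 KO1. The members of these lists were not tested as sets.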

How the data were processed

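RNA-seq of 2 WT and 2 ZCCHC4 KO1 libraries was compared, and the libraries treated with oxaliplatin were not analysed here. The authors deposited FPKM values per gene under Entrez identifiers, made by alignment to GRCh38 with Bowtie2 and estimation with RSEM. Their software versions and the strand setting are not given in the sources used here. The supplement names the BGISEQ-500 platform and the labels an Illumina HiSeq instrument. FPKM values hold no read totals, and neither depth nor counting error can be given. All columns were matched to samples by their titles (0 columns left).

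Symbols, biotypes, positions and promoters came from RefSeq for GRCh38.p14, which gave a symbol for 16384 of 16658 genes. GC content came from the longest protein-coding GENCODE v44 transcript of each gene, which may not be the one expressed. Genes with an FPKM of at least 1 in at least 2 libraries were compared as log2(FPKM + 1), a scale that understates changes of low values, with limma 3.58.1 in R 4.3.3 (lmFit, eBayes with a trend, two-sided, Benjamini-Hochberg adjustment over all genes tested). The procedure was run on simulated data with independent noise, no GC trend and changes larger than that of any tested subunit gene. That run thus does not show how it performs on changes of the size seen here.

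The genes, the lists of related genes and the tests were chosen with earlier results of these data known. Genes named were those called, per complex the 3 with the smallest p and the highest and lowest in level, catalytic subunits, isoforms and paralogs, and genes on chromosome arms where neighbours had shifted together, and of each related list the 2 with the smallest p and any called. NDUFA13, NDUFC2, NDUFC2-KCTD14, ATP5IF1, ATP5PB, ATP5PD, COX5A, UQCRC1, UQCRC2, the fibroblast markers and PPARGC1A were named besides. A further gene covered by this rule is not reported here.

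The alternatives changed the pseudocount to 0.1, dropped the filter or raised it to an FPKM of 5, rescaled the values by median ratios or by quantiles, removed the trend on GC content (natural spline, 4 degrees of freedom), left the trend out of eBayes, blocked on the replicate number as given or crossed, left out each library, or kept structural subunits only.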

Additional observations from a re-analysis of the deposited data

Results flagged for a closer look

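COX6B2, the testis form of the complex IV subunit gene COX6B1, was left out of the test because it did not reach an FPKM of 1, and it was listed at 0.11 and 0.04 FPKM in the WT libraries and at 0.56 and 0.47 in the ZCCHC4 KO1 libraries. Both ZCCHC4 KO1 values were above both WT values. When genes of all levels were tested, its log2 fold change on the log2(FPKM + 1) scale was 0.50 (standard error 0.0591, adjusted p = 0.047 from limma). The added 1 is larger than each of these FPKM values, so that this scale understates the change and its spread. The ratio of the mean FPKM, ZCCHC4 KO1 over WT, was 6.87. At this level, and with the depth unknown, the number of fragments behind these values cannot be given.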

How the results depend on the processing

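The precision rests on 2 libraries per group. At the study's own thresholds (2-fold, FDR below 0.001), 0 subunit genes were called under every alternative run. No tested subunit gene reached a 2-fold change in the main fit, so none could be called there. At an FDR below 0.05, the counts of 0 higher and 2 lower were 1 and 0 without a filter on low values (COX6B2 higher), 0 and 0 after median-ratio scaling, 4 and 6 on quantile-normalized values (12.5% of the subunit genes, against 11.1% of all genes), 5 and 5 where the GC trend was removed (12.5%, against 23.6%), 0 and 0 for eBayes without a trend, and 0 and 2 in the others. Leaving out 1 library gave 0 to 7 higher and 0 to 4 lower, with 7 and 4 without ZCCHC4 KO1 replicate 2 (13.8%, against 14.9%) and 0 and 0 without either WT library. Such a fit assumes that the lone library of a group varies like the other group.

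With the replicate number as a block, 0 higher and 0 lower subunit genes were called. The numbers did not pair the libraries: the difference between replicates 2 and 1 in WT correlated with that in ZCCHC4 KO1 at -0.787 across 10726 genes. No label gives a crossed pairing, and this correlation comes from the same values that were tested. With such a pairing 14 were higher and 17 lower, or 38.8% of the subunit genes against 49.4% of all genes. It also gave the lower end of each range of adjusted p quoted above for a subunit gene.

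With median-ratio scaling the median of all subunit genes was 0.05, that of complex II -0.09, that of complex III 0.16 and the log2 ratio of the summed FPKM of complex II -0.02. Leaving out 1 library moved the median of all subunit genes between -0.05 and 0.05, that of complex I between -0.05 and 0.09, that of complex II between -0.13 and -0.08, that of complex III between 0.00 and 0.23, that of complex IV between -0.07 and 0.23 and that of complex V between -0.18 and -0.07. ATP5F1C and ATP5PF kept their direction under all 13 alternatives. Of 41 subunit genes named by the rule above that did not pass the test, 16 passed it and 17 changed sign in at least 1 alternative. Genes named besides that rule are not in these counts. NDUFB9, NDUFV2, UQCR10 and UQCRFS1 passed the test only under the crossed pairing, as did NDUFC2 and ATP5PD of the genes named besides. The causes of these shifts were not tested.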
